A study of Mus musculus with 3 samples.

Results

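The genes described here are 10 components of the LIF-STAT3 axis and of the naive-state factor network of mouse embryonic stem (ES) cells: Lifr, Il6st, Stat3, Socs2, Socs3, Klf2, Klf4, Klf5, Gbx2 and Tbx3. They were chosen by name, and every probe set that the platform annotation pairs with one of them was taken, which gave 32 of the 45101 probe sets of the array, for 10 of the 18193 genes that have a probe set of their own. RNA came from undifferentiated R1 cells, a mouse ES cell line, and was hybridised to 1 Affymetrix array for each of 3 groups: cells given BMP4 (20 ng/ml, 4 h), cells given the BMP antagonist noggin (100 ng/ml, 4 h) and untreated cells. All 3 groups were the same line, and neither the presence of LIF, serum or feeder cells nor the time at which the untreated cells were taken is given in the sources used here. No condition had a replicate, so no test, no SD between samples and no p-value is given and each difference describes these arrays alone.

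LIF is a cytokine of the interleukin-6 family that keeps mouse ES cells self-renewing. It joins the receptor chains LIFR and gp130, the product of Il6st, and the Janus kinases bound to them phosphorylate STAT3, which then enters the nucleus and switches on target genes. SOCS3 is among those targets and shuts the receptor complex down, while KLF4, KLF5, GBX2 and TBX3 carry the signal into the transcription factor network of naive pluripotency. In serum-free culture BMP4 is known to act together with LIF, through Id proteins, to maintain mouse ES cells.

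Values are log2 RMA expression values, in which a difference of 1 is a factor of 2. Each gene was read from its brightest probe set (highest 3-array mean), and all 10 of these lay above 3.44, the median of all values on the arrays, which served as the floor. A size limit of 1.2-fold, 0.263 on the log2 scale, was used for description, and 11594 genes above the floor gave the background. As a measure of disagreement among probe sets, their differences within a gene had an SD of 0.13 (BMP4 against untreated), 0.11 (noggin against untreated) or 0.16 (BMP4 against noggin), called the within-gene SD below. All probe sets of a gene are read from the same arrays, so this SD does not measure the scatter between arrays. That scatter could not be estimated with 1 array per condition. The BMP4-responsive genes Id1, Id2 and Id3 were 2.76 to 4.10 higher on the log2 scale with BMP4 than without treatment, and 0.19 to 0.49 lower with noggin. All 6 ES cell markers examined (Pou5f1, Sox2, Nanog, Utf1, Dppa5a and Tdgf1) were above the floor on every array. Of 12 fibroblast markers, 6 were above it with BMP4, 7 with noggin and 6 without treatment, Col1a1, Col3a1 and Lum were below it on each array, and the summed linear level of the 12 was 165 with BMP4, 181 with noggin and 181 without treatment. The 24 probe sets for poly-A spikes, RNAs added before labelling, were all below the untreated array with BMP4, by a median of −0.63, and with noggin 23 of 24 were below it (median −0.18). Of 6 primitive endoderm markers, 5 were above the floor on each array, Gata4 was below it, and their summed linear level was 122 with BMP4, 98.4 with noggin and 96.2 without treatment. With BMP4, 2 of those 5 were at least 1.2-fold higher than without treatment, Sox7 by 0.99 and Gata6 by 0.52 on the log2 scale. Of all genes above the floor, 1.59% were. Among 7 fibroblast markers above the floor on any array, 2 were at least 1.2-fold lower with BMP4, against 2.25% of all genes. These were S100a4 at −0.55 and Postn at −0.32, the latter above the floor with noggin alone. With noggin, S100a4 was lower by as much as 1.2-fold, at −0.31, against 1.9% of all genes. Of 6 primed epiblast markers, 4 were above the floor on each array. The summed linear level of the 6 was 683 with BMP4, 673 with noggin and 705 without treatment. Among those 4, Pou3f1 alone passed 1.2-fold. It was lower with noggin than without treatment, at −0.36, against 1.9% of all genes. It was also higher with BMP4 than with noggin, at 0.31, against 3.37%. The part of the spikes and of these marker lists in the differences below was not tested. In such bulk RNA, fewer cells of a type and less RNA per cell cannot be told apart.

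With BMP4, 1 of the 10 genes, Socs2, was at least 1.2-fold above the untreated array, where 1.59% of all genes above the floor were, and 0 were at least 1.2-fold below it, where 2.25% of all genes were. With noggin, 0 of the 10 passed 1.2-fold in either direction, against a background of 0.897% higher and 1.9% lower. Between the treatments, Socs2 was at least 1.2-fold higher with BMP4 than with noggin and Il6st at least 1.2-fold lower, 1 gene in each direction, with backgrounds of 3.37% and 3.26%. With BMP4, 8 of the 10 genes lay within 0.13 of the untreated array in either direction, and Socs2 and Gbx2 were the genes outside that distance. The median difference of the 10 genes was 0.01 with BMP4 and −0.04 with noggin, each against the untreated array, and 0.05 between BMP4 and noggin, and the median over all genes above the floor was 0.00 in each comparison. At a lower limit of 1.1-fold, 1 gene (Socs2) was higher with BMP4 than without treatment and 1 (Gbx2) lower, where 5.39% and 8.98% of all genes were. With noggin, 1 (Il6st) was 1.1-fold higher and 3 (Socs2, Socs3 and Gbx2) lower than without treatment, where 5.3% and 8.42% were. Between BMP4 and noggin, 3 (Stat3, Socs2 and Klf4) were 1.1-fold higher and 1 (Il6st) lower, where 9.97% and 10.6% were. At 1.5-fold, 0 of the 10 passed in any comparison, where 0.224% of all genes were higher and 0.0518% lower with BMP4, 0.00863% higher and 0.069% lower with noggin, and 0.38% higher and 0.138% lower with BMP4 than with noggin. Both treated arrays are compared with the same untreated array, so the first and second comparisons are not independent of each other.

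**Figure D1:**
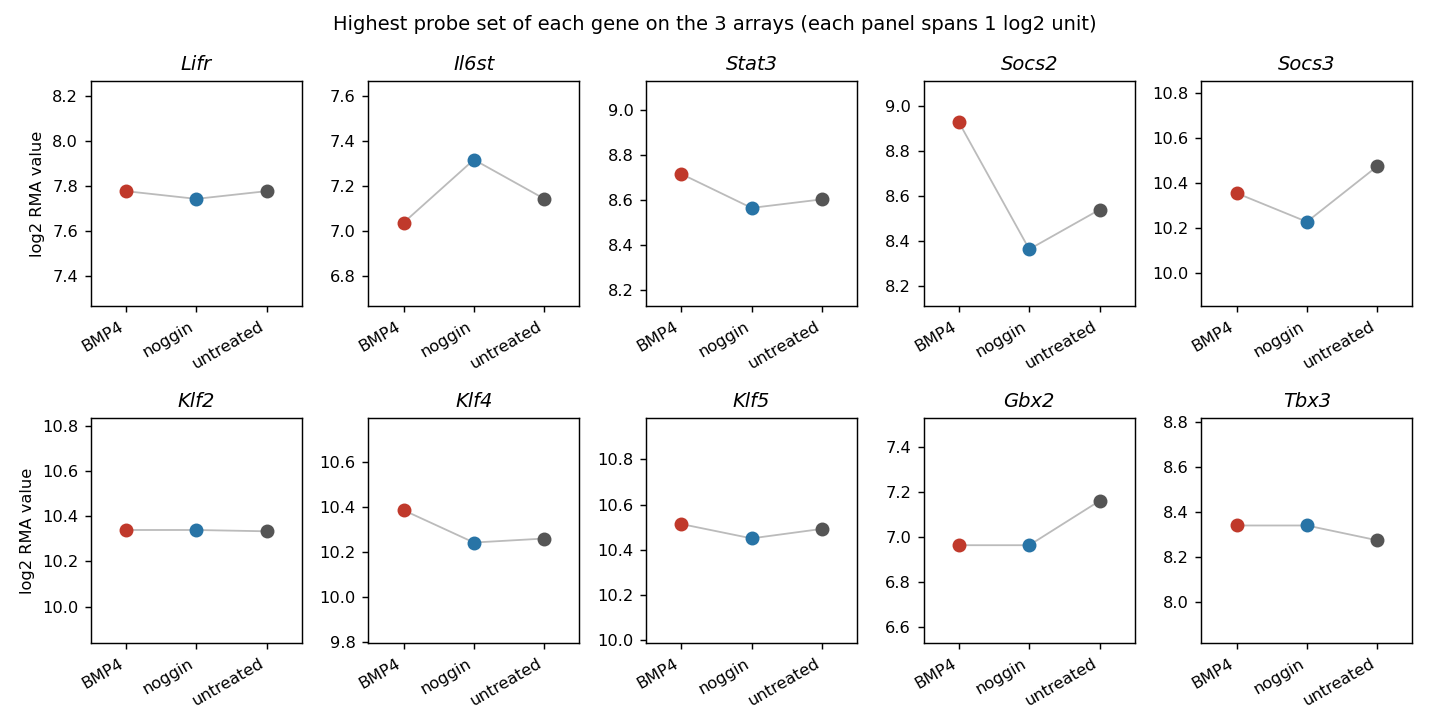
Log2 RMA value (vertical axis, each panel spanning 1 log2 unit) of the highest probe set of each of the 10 genes on the BMP4, noggin and untreated arrays (1 point per array, grey lines only join points of a gene). Socs2 is high with BMP4 at 8.93, Il6st is high with noggin at 7.32, Gbx2 is high without treatment at 7.16, and Klf2 lies at 10.33 to 10.34 on all 3 arrays.

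Of the receptor chains, Il6st differed more between the arrays than Lifr. Lifr, which encodes the chain that LIF joins to gp130, measured 7.78 with BMP4, 7.74 with noggin and 7.78 without treatment in its highest probe set. Its BMP4 and untreated values were equal to 6 decimals in all 3 of its probe sets. The dimmer probe sets of Lifr were 0.18 and 0.07 higher with noggin than without treatment, whereas the highest was 0.03 lower. Il6st, which encodes the signal-transducing chain gp130 shared by the family, measured 7.04 with BMP4, 7.32 with noggin and 7.14 without treatment. It was thus highest with noggin and lowest with BMP4. Noggin minus untreated was 0.17, beyond the within-gene SD of 0.11, and 3.23% of genes above the floor were as far above the untreated array, while 2.67% had a BMP4 minus noggin difference as low as its −0.28. The 4 probe sets of Il6st did not share this order. Probe set 1460295_s_at measured 5.43 with BMP4, 5.13 with noggin and 5.23 without treatment, a BMP4 minus noggin difference of 0.30 in the opposite direction, and 1437303_at measured 5.93 with either treatment and 5.82 without. Averaged over its probe sets, BMP4 minus noggin for Il6st was 0.0037.

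Stat3, the transcription factor that the receptors activate, measured 8.72 with BMP4, 8.57 with noggin and 8.60 without treatment in probe set 1426587_a_at. The BMP4 minus untreated difference was 0.11, and 7.06% of genes above the floor were as far above the untreated array. A second well-expressed probe set of Stat3, 1460700_at, measured 8.07 with BMP4, 8.05 with noggin and 8.05 without treatment. Both probe sets were thus highest with BMP4, but by amounts below the within-gene SD. Of the others, 1459961_a_at was lower with both treatments, at 4.50 each against 4.65 without treatment, and 1424272_at was equal at 3.93 on all 3 arrays. These are transcript levels, and the phosphorylation by which STAT3 is activated was not measured here.

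Among the SOCS inhibitors, which dampen cytokine receptor signalling, Socs2 was the further from the untreated array with BMP4 and Socs3 with noggin. SOCS2 is best known as a brake on growth hormone signalling. Socs2 measured 8.93 with BMP4, 8.36 with noggin and 8.54 without treatment in probe set 1449109_at, so that the BMP4 array was high and the noggin array low. It was 1.31-fold higher with BMP4 than without treatment, and 0.656% of genes above the floor had a difference that high. Noggin gave a difference of −0.18 from the untreated array, and BMP4 minus noggin came to 0.56, or 1.48-fold, a value reached by 0.423% of genes.

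None of the other 4 probe sets of Socs2 above the floor reached 1.2-fold in any comparison. Probe set 1418507_s_at, which the annotation assigns to the same RefSeq transcript, measured 8.46 on all 3 arrays, equal to 6 decimals. Probe sets 1438470_at and 1442586_at were also equal on all 3 arrays, at 5.09 and 4.65. Probe set 1446085_at measured 6.04 with BMP4, 5.95 with noggin and 6.04 without treatment, so that noggin was low by 0.09. The sixth, 1441476_at, was below the floor, at 2.45 with BMP4, 2.11 with noggin and 2.39 without treatment; its order of arrays was that of 1449109_at, with BMP4 minus noggin at 0.34. With all 6 averaged, the BMP4 minus untreated difference of Socs2 was 0.08 and BMP4 minus noggin was 0.17, both under 1.2-fold.

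Socs3, the direct STAT3 target that blocks gp130 signalling, measured 10.36 with BMP4, 10.23 with noggin and 10.48 without treatment in probe set 1455899_x_at. Both treated arrays were below the untreated one, by 0.12 with BMP4 and by 0.25 with noggin, and 2.28% of genes above the floor were as far below it with noggin. The noggin difference of −0.25 was just under the 1.2-fold limit. The other probe sets of Socs3 differed by less: 1416576_at measured 8.76 with BMP4, 8.74 with noggin and 8.71 without treatment, in the opposite direction, and 1456212_x_at measured 8.80 with either treatment and 8.81 without. The suffix x marks probe sets whose probes may also match other transcripts, and the Socs3 probe set with the largest differences carries it.

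**Figure D2:**
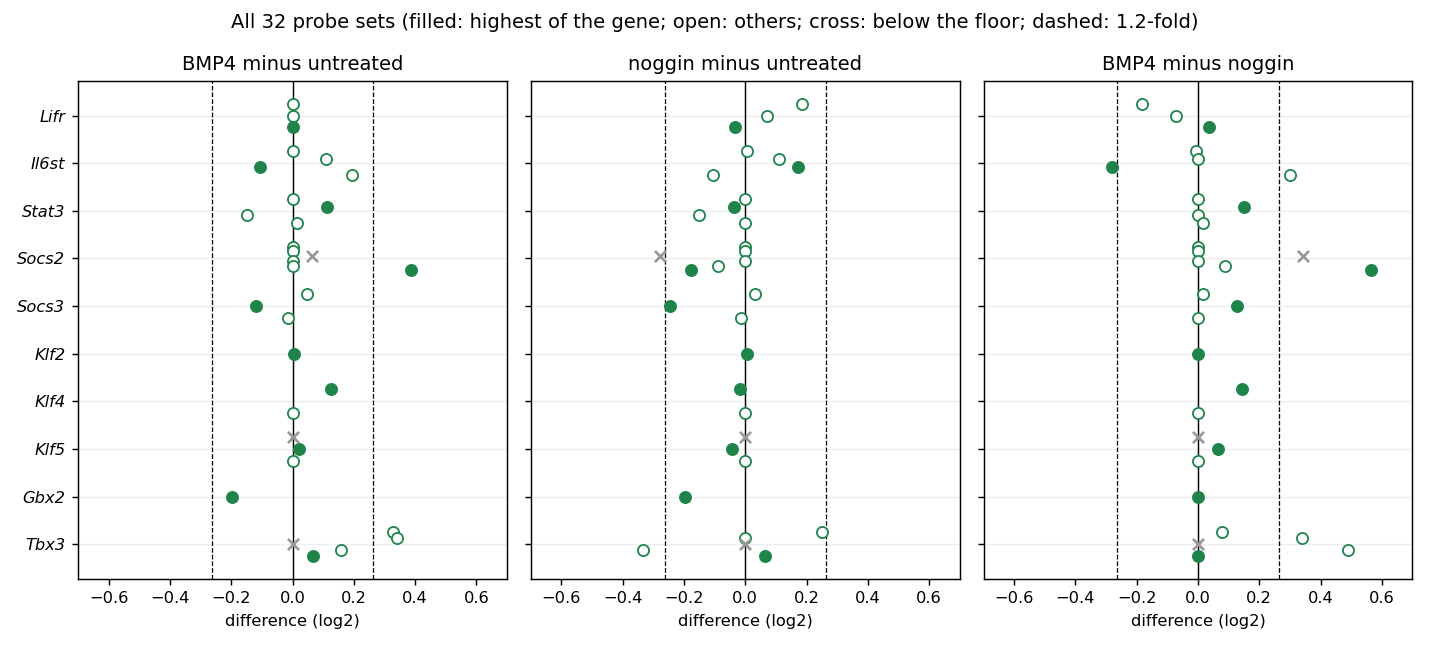
Difference in log2 RMA value (horizontal axis) for all 32 probe sets of the 10 genes (rows), in the 3 comparisons named above the panels. Filled circles are the highest probe set of a gene, open circles its other probe sets, crosses probe sets below the floor on all arrays, and dashed lines mark 1.2-fold; Socs2 has 1 probe set at 0.39 and 4 above-floor probe sets at 0.00 in the BMP4 panel, while the 4 above-floor probe sets of Tbx3 are all above 0 there.

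Klf2, Klf4 and Klf5 encode zinc finger factors that overlap in sustaining naive pluripotency. Klf2, read by a single probe set, measured 10.34 with BMP4, 10.34 with noggin and 10.33 without treatment. Klf4, a STAT3-dependent member, measured 10.38 with BMP4, 10.24 with noggin and 10.26 without treatment in probe set 1417394_at. The BMP4 array was high by 0.13, where 6.15% of genes lay as far above the untreated array, but the second probe set of Klf4, 1417395_at, was equal at 8.60 on all 3 arrays. Klf5 measured 10.51 with BMP4, 10.45 with noggin and 10.49 without treatment in probe set 1451021_a_at. Its probe set 1451739_at was equal at 6.67 on all 3 arrays, and 1430255_at was below the floor at 2.35 on each. In the highest probe set all 3 Klf genes were above the untreated array with BMP4, by 0.01 to 0.13, where 2871 of 11594 genes were. None of these 3 differences exceeded the within-gene SD of 0.13.

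Gbx2, a homeobox gene induced by STAT3, measured 6.96 with BMP4, 6.96 with noggin and 7.16 without treatment in its single probe set. The values of the treated arrays were equal to 6 decimals, and both were 0.20 below the untreated array, or 1.15-fold lower. Of genes above the floor, 4.41% were as low with BMP4 and 4.17% with noggin. Because the difference is the same for opposite treatments, it is equally a difference of the untreated array from the other two, and these readings cannot be told apart.

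Tbx3, a T-box factor linked to PI3 kinase signalling in ES cells, measured 8.34 with BMP4, 8.34 with noggin and 8.27 without treatment in its highest probe set. The other probe sets of Tbx3 above the floor gave larger differences. Probe set 1437479_x_at measured 7.28 with BMP4, 7.21 with noggin and 6.96 without treatment, which places the untreated array apart. Probe set 1439567_at measured 4.44 with BMP4 and 4.10 on both the noggin and untreated arrays, which places BMP4 apart, by 0.34. Probe set 1445757_at measured 6.10 with BMP4, 5.61 with noggin and 5.95 without treatment, so that noggin was low by 0.33 and BMP4 minus noggin was 0.49. All 4 probe sets above the floor were thus higher with BMP4 than without treatment, by 0.07 to 0.34, whereas with noggin they ran from −0.33 to 0.25. The fifth was below the floor, at 2.18 on each array. The call by the highest probe set alone therefore gives Tbx3 the smallest of its 4 BMP4 differences.

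Counted by probe set, 29 of the 32 exceeded the floor on at least 1 array. With BMP4, 3 of the 29 were at least 1.2-fold above the untreated array, 1 of Socs2 and 2 of Tbx3, where 3.39% of all expressed probe sets were, and 0 were as far below it, where 2.1% were. With noggin, 0 were 1.2-fold higher and 1, of Tbx3, was 1.2-fold lower, against 1.08% and 2.8% of all probe sets. BMP4 minus noggin placed 4 of the 29 at least 1.2-fold higher, against a background of 6.1%: these were 1 of Socs2, 1 of Il6st and 2 of Tbx3. A single probe set, of Il6st, was as far lower, against 2.9%. The probe sets of one gene share its transcripts and are not independent of each other.

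**Figure D3:**
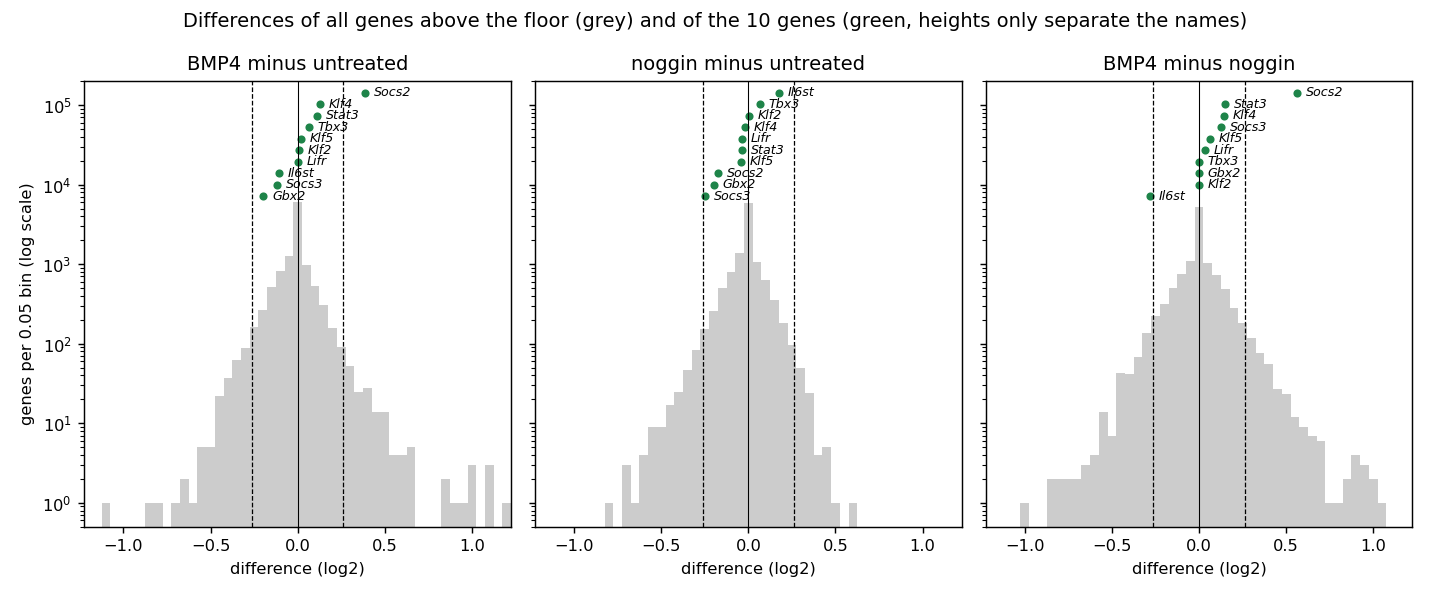
Number of genes above the floor per bin of 0.05 (vertical axis, log scale, grey) against the log2 difference (horizontal axis) in the 3 comparisons, with the highest probe set of each of the 10 genes as green points whose height only separates the names; dashed lines mark 1.2-fold. Socs2 lies outside the dashed lines in the first and last panel and Il6st in the last, and 7 genes of the first panel and 11 of the last lie beyond the axis.

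Values that were exactly equal between arrays were common, which median polish over few arrays is known to produce. Among these 29, 6 were equal on all 3 arrays, or 20.7%, against 24.3% of such probe sets on the whole array. A further 5 were equal between BMP4 and untreated alone, 2 between noggin and untreated alone, and 6 between BMP4 and noggin alone, the last at 20.7% against 8.14% of all probe sets. Probe sets of this last kind belonged to Il6st, Stat3, Socs3, Klf2, Gbx2 and Tbx3, 1 for each gene. In these the untreated array differed from a common value of the treated arrays, by amounts from −0.20 for Gbx2 to 0.11 for Il6st (treated minus untreated).

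Promoter sequences are shown for Socs3 and Gbx2, since they are the genes whose highest probe set was below the untreated array on both treated arrays. The sequences are from RefSeq (GRCm38.p6) and run 5′ to 3′ on the strand of the gene, from 250 bases before the annotated start to 50 bases after it. Capitals mark matches to TTCNNNGAA, the palindromic core that STAT factors bind, and to GGCGCC, a palindromic GC-rich element that SMAD proteins can bind in BMP-responsive genes.
Socs3, chr11:117969317-117969616, minus strand: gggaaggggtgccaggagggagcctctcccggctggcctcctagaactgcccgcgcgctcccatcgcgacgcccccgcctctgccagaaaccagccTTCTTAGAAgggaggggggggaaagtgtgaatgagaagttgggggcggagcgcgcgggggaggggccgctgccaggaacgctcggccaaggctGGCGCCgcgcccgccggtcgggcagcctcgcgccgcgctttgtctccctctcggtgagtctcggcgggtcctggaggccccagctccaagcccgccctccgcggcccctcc
Gbx2, chr1:89931127-89931426, minus strand: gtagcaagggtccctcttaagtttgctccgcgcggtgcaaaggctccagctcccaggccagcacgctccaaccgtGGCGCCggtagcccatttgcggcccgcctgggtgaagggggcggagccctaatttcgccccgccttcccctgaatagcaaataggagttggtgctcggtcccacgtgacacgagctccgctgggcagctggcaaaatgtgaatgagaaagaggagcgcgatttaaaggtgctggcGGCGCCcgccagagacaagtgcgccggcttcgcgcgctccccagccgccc

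The Socs3 promoter held 1 match to the STAT core, TTCTTAGAA, starting 154 bases before the start, and 1 match to GGCGCC, starting 61 bases before it. The Gbx2 promoter held no match to the STAT core and 2 matches to GGCGCC, one starting 175 bases before the start and one at the start itself. Promoter sequences were matched for 7 of the 10 genes (Lifr, Il6st, Stat3, Socs3, Klf2, Klf4 and Gbx2), 8 promoters in all because Lifr has 2. Socs3 was the only one of these 7 genes with the STAT core, which 8.3% of 32851 promoters of the same length held. GGCGCC was present in Lifr, Socs3 and Gbx2, and in 11.9% of all promoters. CACCC on either strand, the box that KLF factors bind, was present in 6 of the 7 genes, all but Klf4, and in 57.5% of all promoters. Both longer motifs read the same on either strand, and matches of different motifs overlapped in 0 cases. The GC content of the promoters of these genes ran from 53.3% to 81.3%, above the median of 52.7% over all promoters. A match describes the letters of this window and does not show that a factor binds there.

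The rest of the pathway was read from lists of ligands, receptors, kinases, STAT and SOCS genes, STAT3-induced genes, relatives of the Klf, T-box and Gbx genes, and other naive factors. Without the 10 genes these lists held 78 genes, of which 60 had a highest probe set above the floor. With BMP4, 3 of the 60 were at least 1.2-fold higher and 2 at least 1.2-fold lower, where 1.59% and 2.25% of all genes were. With noggin, 0 were 1.2-fold higher and 1 was 1.2-fold lower, where 0.897% and 1.9% were. The median over the 60 was 0.00 in both comparisons, as over all genes. Between the treatments, 4 were at least 1.2-fold higher with BMP4 than with noggin (Fos, Klf10, Eomes and Gbx1) and 1, Nr5a2, was lower, where 3.37% and 3.26% of all genes were. Gbx1, also among the 3 higher with BMP4 than without treatment, was above the floor with BMP4 alone. The value that admitted Gbx1 to the 60 is thus the one that made it higher in both counts. Of 6 measured ligand genes of the family, 2 were above the floor: Osm measured 4.40 with BMP4, 4.48 with noggin and 4.40 without treatment, and Ctf1 measured 5.49 with BMP4 and 5.54 on both other arrays. The other 4, Lif, Il6, Il11 and Clcf1, were below the floor on all arrays, with Lif at 3.13 on each.

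Of the 4 Janus kinase genes, which phosphorylate STAT3, all were above the floor and none passed 1.2-fold. Jak1 measured 7.51 with BMP4, 7.57 with noggin and 7.37 without treatment, so that both treated arrays were above the untreated one. Among 8 SOCS family genes Socs2 alone passed 1.2-fold. It was higher with BMP4 than without treatment, where 1.59% of all genes were, and than with noggin, where 3.37% were. Of its probe sets above the floor, only 1449109_at did so. Socs1 measured 4.12 with BMP4, 3.93 with noggin and 3.94 without treatment. Cish, a STAT5 target of the same family, measured 4.48 with BMP4, 4.47 with noggin and 4.48 without treatment. It is also counted in the list of STAT3-induced genes below. The 8 genes for PIAS proteins and phosphatases, other inhibitors of STAT signalling, differed from the untreated array by −0.16 to 0.14 with BMP4 and by −0.03 to 0.06 with noggin.

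The list of STAT3-induced genes, which includes Socs3, Klf4, Klf5 and Gbx2, had 14 members, all above the floor. With BMP4, 6 were higher, 4 lower and 4 equal, with a median of 0.00 and 0 past 1.2-fold in either direction. Of all 11594 genes above the floor, 2871 were higher, 4129 lower and 4594 equal in that comparison. At least 1.2-fold higher were 1.59% of all genes, and 2.25% were as far lower. With noggin, 1 was higher, 11 lower and 2 equal, with a median of −0.07, where the median of all genes above the floor was 0.00 and 4191 of 11594 genes were lower. Of the 11, only Socs3, Fos, Gbx2, Pim3 and Myc differed by more than the within-gene SD of 0.11. Cish, Klf4, Icam1 and Klf5 lay between −0.01 and −0.04. These counts use the highest probe set alone. With noggin, Socs3 probe set 1416576_at was 0.03 higher, 1456212_x_at was at −0.01, and 1417395_at of Klf4 and 1451739_at of Klf5 were equal. Only Fos, an immediate-early gene, was at least 1.2-fold lower with noggin, where 1.9% of all genes were. It measured 4.40 with BMP4, 4.07 with noggin and 4.40 without treatment. The kinase gene Pim3 measured 9.63 with BMP4, 9.45 with noggin and 9.58 without treatment, and Tfcp2l1, a naive-state factor, was the member above 0 with noggin, at 0.05. On the same pair of arrays the poly-A spikes differed by a median of −0.18. The 18 probe sets for hybridisation spikes differed by a median of −0.0058, with 9 lower and 2 higher. The part of either kind of spike in the counts of this list was not tested.

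**Figure D4:**
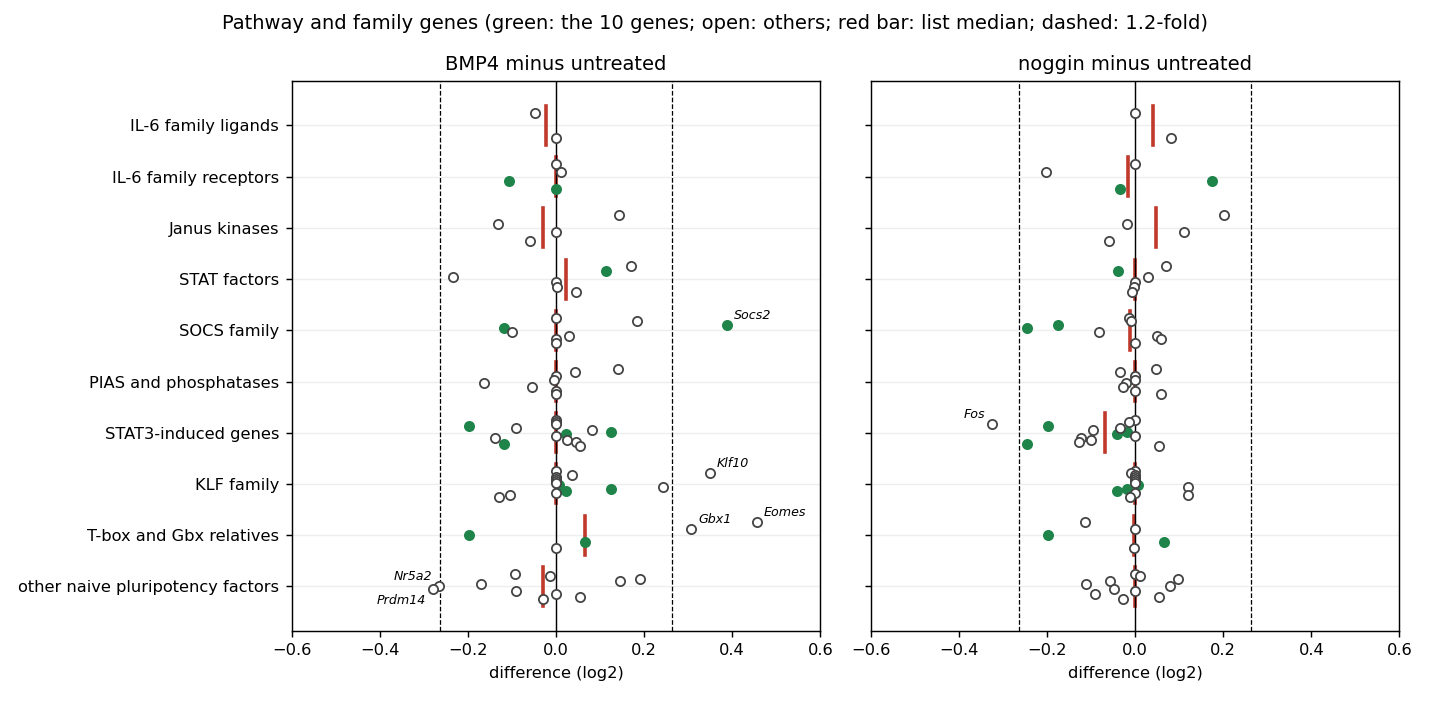
Log2 difference (horizontal axis) of each gene above the floor in 10 pathway and family lists (rows), for BMP4 minus untreated and noggin minus untreated; green points are the 10 genes described here, open points other genes, red bars list medians and dashed lines 1.2-fold. In the noggin panel 11 of the 14 STAT3-induced genes lie below 0, from −0.01 for Cish to −0.33 for Fos. Of all genes above the floor, 4191 of 11594 lie below 0 in that comparison. In the BMP4 panel Socs2, Klf10, Gbx1 and Eomes lie above 1.2-fold and Nr5a2 and Prdm14 below it.

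Among 14 measured KLF family genes above the floor, 1 was at least 1.2-fold higher with BMP4, against 1.59% of all genes, and it was none of the naive-state members. Klf10, also known as a TGF-beta-inducible early gene, measured 8.45 with BMP4, 8.09 with noggin and 8.10 without treatment, a BMP4 minus untreated difference of 0.35. Of the T-box and Gbx relatives, Eomes, a T-box factor of mesendoderm and trophoblast, measured 6.38 with BMP4, 5.81 with noggin and 5.92 without treatment. Gbx1 measured 3.52 with BMP4 and 3.21 on both other arrays, where it was below the floor. Of 11 other naive pluripotency factors, 2 were at least 1.2-fold lower with BMP4, against 2.25% of all genes. Prdm14, a repressor of differentiation genes, measured 6.84 with BMP4, 7.07 with noggin and 7.12 without treatment, and Nr5a2, a nuclear receptor, measured 8.37 with BMP4, 8.72 with noggin and 8.64 without treatment. For both of these the BMP4 array was low.

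The genes with a pattern nearest to those of Socs2 and Il6st, the members past 1.2-fold in some comparison, were found by the Euclidean distance over the BMP4 minus untreated and noggin minus untreated differences, that is over 3 arrays. Nearest to Socs2 were Smc6 at a distance of 0.012, Lrrc34 at 0.031 and Ccdc59 at 0.035. Smc6 measured 8.07 with BMP4, 7.52 with noggin and 7.70 without treatment. Nearest to Il6st were Bicd2 at 0.0040, Fzd5 at 0.0043 and Kmt2b at 0.0086. Fzd5, a Wnt receptor gene, measured 8.13 with BMP4, 8.41 with noggin and 8.24 without treatment.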

How the data were processed

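Per the labels' protocols, total RNA was isolated on Qiagen columns and biotin-labelled following Affymetrix. The authors deposited log2 expression values per probe set, made with RMA per the submitters' processing notes; its version, its settings and the genome build are not given in the sources used here. RMA corrects background, equalises the distributions of the arrays and summarises probes by median polish, so a general shift in RNA content would be hidden and small differences can come out as exactly 0.

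Values were used as deposited. Of 45101 probe sets, 34945 were paired with 1 gene symbol by the platform annotation (18193 genes) and 932 with several; 64 control probe sets were left out. All 10 symbols matched the RefSeq gene table. Each gene was read from its probe set with the highest mean, and 11594 genes passed the floor, the median of all values. Array number limits the precision, and with 1 array per condition no test was made. Differences were counted at 1.2-fold. The genes named are the 10 members, list members above the floor and past 1.2-fold in a comparison, Id1, Id2 and Id3, and the 3 genes nearest to a member past 1.2-fold. Further list genes (the ligand genes, Sox7, Gata6, Pou3f1, S100a4, Postn, Jak1, Socs1, Cish, Pim3, Myc, Icam1 and Tfcp2l1) were picked with their values known. The members and lists were chosen with earlier results of these data known. Counting was tested on simulated differences. Python 3.11.15, pandas 2.3.3 and statsmodels 0.14.6 were used. Alternatives were other floors, probe set rules, scalings and limits.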

Additional observations from a re-analysis of the deposited data

How the results depend on the processing

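With all probe sets of a gene averaged, 0 members were 1.2-fold higher with BMP4 than without treatment, and between BMP4 and noggin 0 were higher and 0 lower; the BMP4 minus noggin difference of Il6st reversed to 0.0037, since its probe sets differ in sign. At a limit of 1.5-fold, 0 members passed in any comparison. At 1.1-fold, 1 was lower with BMP4 than without treatment, 1 was higher and 3 were lower with noggin than without treatment, and 3 were higher with BMP4 than with noggin. The plain probe sets and loess left the counts at 1.2-fold unchanged. The other floors and median centring could not change them. All 10 genes lie above the higher floor of 6.04, and the median subtracted was 0.00 in each comparison. The median of the 10 genes ran from 0.0058 to 0.0298 for BMP4 minus untreated, from −0.0506 to 0.00 for noggin minus untreated and from 0.0074 to 0.0804 for BMP4 minus noggin over 17 alternatives, leaving out each gene included. Of 180 values of single members, 170 moved by less than the within-gene SD. The other 10 came from averaging probe sets (8) or from using plain probe sets alone (2). Many of the 180 could not move: those of the 2 other floors and of median centring (30 values per setting) repeat the reported value. Klf2 and Gbx2, with 1 probe set each, were also fixed under averaging and plain probe sets.

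The background counts come from different gene totals, so their shares are given beside them. With no floor (18193 genes), 1291 genes (7.1%) were 1.2-fold lower with noggin than without treatment, against 220 of 11594 (1.9%) as reported. Higher with BMP4 than with noggin were 1443 (7.93%), against 391 (3.37%). Higher with BMP4 than without treatment were 288 (1.58%), against 184 (1.59%), so that this share hardly changed. With the floor at the 75th percentile, which tests fewer genes, the counts of higher and lower genes were 100 and 130 for BMP4 minus untreated, 34 and 55 for noggin minus untreated, and 191 and 228 for BMP4 minus noggin. With probe sets averaged (10708 genes), 121 genes (1.13%) were lower with BMP4 than without treatment, against 261 (2.25%) as reported. Higher with noggin than without treatment were 45 (0.42%), against 104 (0.897%). Lower with BMP4 than with noggin were 157 (1.47%), against 378 (3.26%). No paired analysis was possible because each condition had 1 array.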
